A study of Mus musculus with 16 samples.

Results

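Checkpoint and costimulatory ligands, the surface proteins through which a cell licenses or restrains T cells, were followed in cultured mouse astrocytes. The set was fixed by symbol and held 10 genes: Cd274 (PD-L1), Pdcd1lg2 (PD-L2), Cd80, Cd86, Cd40, Icosl, Vsir (VISTA), Cd47, Pvr and Cd276 (B7-H3). Of these, 8 were among the 16707 genes of the deposited log2 CPM table, and Pdcd1lg2 and Cd86 were absent from it. Astrocytes were taken from the brains of 6-day-old pups, either wild-type (WT, C57BL6J) or homozygous for a knockout of Nlrx1 (Nlrx1-/-), selected with ACSA2 beads and grown for about 10 days without serum. Cells then received vehicle or LPS (500 ng/mL) with IFNγ (10 ng/mL) for 24 hours. Each genotype had 4 litters and each litter gave 1 vehicle well and 1 LPS + IFNγ well, so that 16 libraries formed 4 groups of 4. A litter was a set of pups rather than 1 animal. The removed part of Nlrx1 was not stated.

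T cells act on an antigen only when a second signal accompanies it. CD80 and CD86 give that signal through CD28, ICOSL through ICOS, and CD40 on the presenting cell receives CD40 ligand from the T cell. PD-L1 and PD-L2 restrain T cells through PD-1, VISTA is a further B7-family inhibitor, and B7-H3 is another member of that family. CD47 restrains phagocytes through SIRPα, and PVR binds the activating receptor CD226 and the inhibitory receptor TIGIT. Interferon-γ is a classical inducer of PD-L1 and acts through JAK kinases and the transcription factor IRF1. Astrocytes are known to carry PD-L1 in the inflamed central nervous system.

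Libraries held between 27259420 and 43752903 assigned read pairs. Nlrx1, the targeted gene, lay between 4.08 and 4.44 log2 CPM in the 8 WT libraries and between 1.09 and 2.96 in the 8 Nlrx1-/- libraries, with no overlap, and reads were still counted on it in each knockout library. All 10 astrocyte markers examined were detected. With LPS + IFNγ 3 of them rose and 4 fell in WT, and 2 rose and 5 fell in Nlrx1-/- (edgeR), and Aqp4, Gja1, S100b and Atp1b2 fell in both, by between 0.71 and 2.09 on the log2 scale. Over all genes tested by edgeR, 24.3% rose and 19.8% fell in WT, and 25.6% rose and 23.9% fell in Nlrx1-/-. Of 17 microglia and macrophage markers, 15 were absent from the table and had at most 26 reads in any library. The exceptions were P2ry12 and Cd68. The summed level of the list, in CPM of the Salmon counts, ran from 1.60 to 3.64 in WT vehicle, 1.68 to 5.46 in WT LPS + IFNγ, 1.41 to 2.43 in Nlrx1-/- vehicle and 2.38 to 3.71 in Nlrx1-/- LPS + IFNγ. P2ry12 rose in Nlrx1-/- (2.27 ± 0.71 log2, edgeR, adjusted p = 0.022) and was at 1.78 ± 0.72 in WT (edgeR, adjusted p = 0.069), and Cd68 passed in neither. Sums over 9 T and B cell markers and over 6 neuron markers were higher after stimulation. The former reached 6.25 CPM and was mostly Lck, with Cd3d, Cd3g and Ms4a1 at 0 reads, and the latter went from between 21.5 and 27.6 to between 58.3 and 89.8 CPM, mostly Tubb3. The neuron markers did not move together. Of the 6, 2 rose and 2 fell in WT, and 2 rose and 3 fell in Nlrx1-/- (edgeR, or limma for Rbfox3 and Gad1). Mean Gad1 went from 2.38 to 0.77 log2 CPM in WT and from 2.86 to 0.91 in Nlrx1-/-. The part of these markers in the results was not tested. Oligodendrocyte lineage markers, mostly Olig1, summed to between 1402 and 3089 CPM. In bulk RNA, fewer cells of a type and less RNA per cell cannot be told apart.

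Cd274 and Pdcd1lg2 are neighbours on mouse chromosome 19. In the GENCODE annotation of GRCm39, Cd274 spans chr19:29344529-29365495 and Pdcd1lg2 spans chr19:29388319-29448882, both on the plus strand, with 22823 bases and no protein-coding gene between them. The 250 bases before each annotated start are printed because 1 neighbour was among the most induced genes of these cells while the other stayed at background. Capitals mark a match to the core of the interferon-stimulated response element, the site bound by interferon regulatory factors, searched on both strands as GAAA, any 2 bases and GAAA.
Cd274, chr19:29344279-29344528, plus strand: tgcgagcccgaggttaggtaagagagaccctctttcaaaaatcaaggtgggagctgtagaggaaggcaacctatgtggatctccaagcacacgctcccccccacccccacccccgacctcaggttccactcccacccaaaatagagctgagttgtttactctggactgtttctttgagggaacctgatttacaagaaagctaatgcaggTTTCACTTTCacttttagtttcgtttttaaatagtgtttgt
Pdcd1lg2, chr19:29388069-29388318, plus strand: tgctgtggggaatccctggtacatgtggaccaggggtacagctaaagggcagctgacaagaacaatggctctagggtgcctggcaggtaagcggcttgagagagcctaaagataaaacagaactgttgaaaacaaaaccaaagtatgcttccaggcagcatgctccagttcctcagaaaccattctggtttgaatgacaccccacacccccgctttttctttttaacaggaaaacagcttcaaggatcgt
The Cd274 window held 1 match, which began 41 bases before the start and lay on the minus strand. The Pdcd1lg2 window held none, and neither did the windows of the 8 other genes. Over the starts of 21770 protein-coding genes, 3.44% of windows of the same length held this match. The interferon-γ-activated site (GAS) motif, searched as TTCNNNGAA, was found in 0 of the 10 windows and in 7.82% of all windows. A κB-like motif, searched as GGG, any 3 bases and TTCC, was found before Cd86 and in 4.35% of all windows. The RefSeq promoter table (GRCm38.p6), which reaches from 250 bases before to 50 bases after each start, covered 7 of the 10 genes and held no match to any of the 3 motifs in them. Its starts are not always those of GENCODE. On GRCm39 its Cd274 window was chr19:29344588-29344887, which lies after the window printed above and leaves out the match. Its Cd47 windows began at chr16:49675767 and chr16:49675774, against chr16:49620646 for the GENCODE window. The matches therefore depend on the annotated start used. A match of letters is a description of the sequence, and no binding was measured here.

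Cd274 was the ligand with the strongest response. In WT vehicle wells it was at −0.10, 0.25, −0.17 and −0.03 log2 CPM in litters 1 to 4, and in the LPS + IFNγ wells of the same litters at 7.14, 7.28, 7.31 and 7.40. In Nlrx1-/- litters it went from −0.83, −0.40, 0.10 and −0.01 to 7.11, 7.45, 7.499 and 7.38. Vehicle and stimulated wells lay far apart in both genotypes, and the 2 genotypes overlapped within each treatment. In reads, vehicle libraries held between 20 and 42 Cd274 reads and stimulated libraries between 3774 and 6284. The mean CPM rose from 0.939 ± 0.132 to 156 ± 11.4 in WT and from 0.789 ± 0.230 to 165 ± 18.8 in Nlrx1-/- (SD, n = 4). The log2 fold change was 7.39 ± 0.11 (SE) in WT (edgeR, adjusted p = 6.3e-12) and 7.70 ± 0.11 in Nlrx1-/- (edgeR, adjusted p = 5.2e-12). Litter by litter the increase lay between 131-fold and 179-fold in WT and between 168-fold and 245-fold in Nlrx1-/-. Ranked by mean litter response, Cd274 stood at position 66 of 16707 genes in WT and at position 52 in Nlrx1-/-. By level, 82.3% of genes were above it in WT vehicle and 8.59% in WT LPS + IFNγ.

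**Figure D1:**
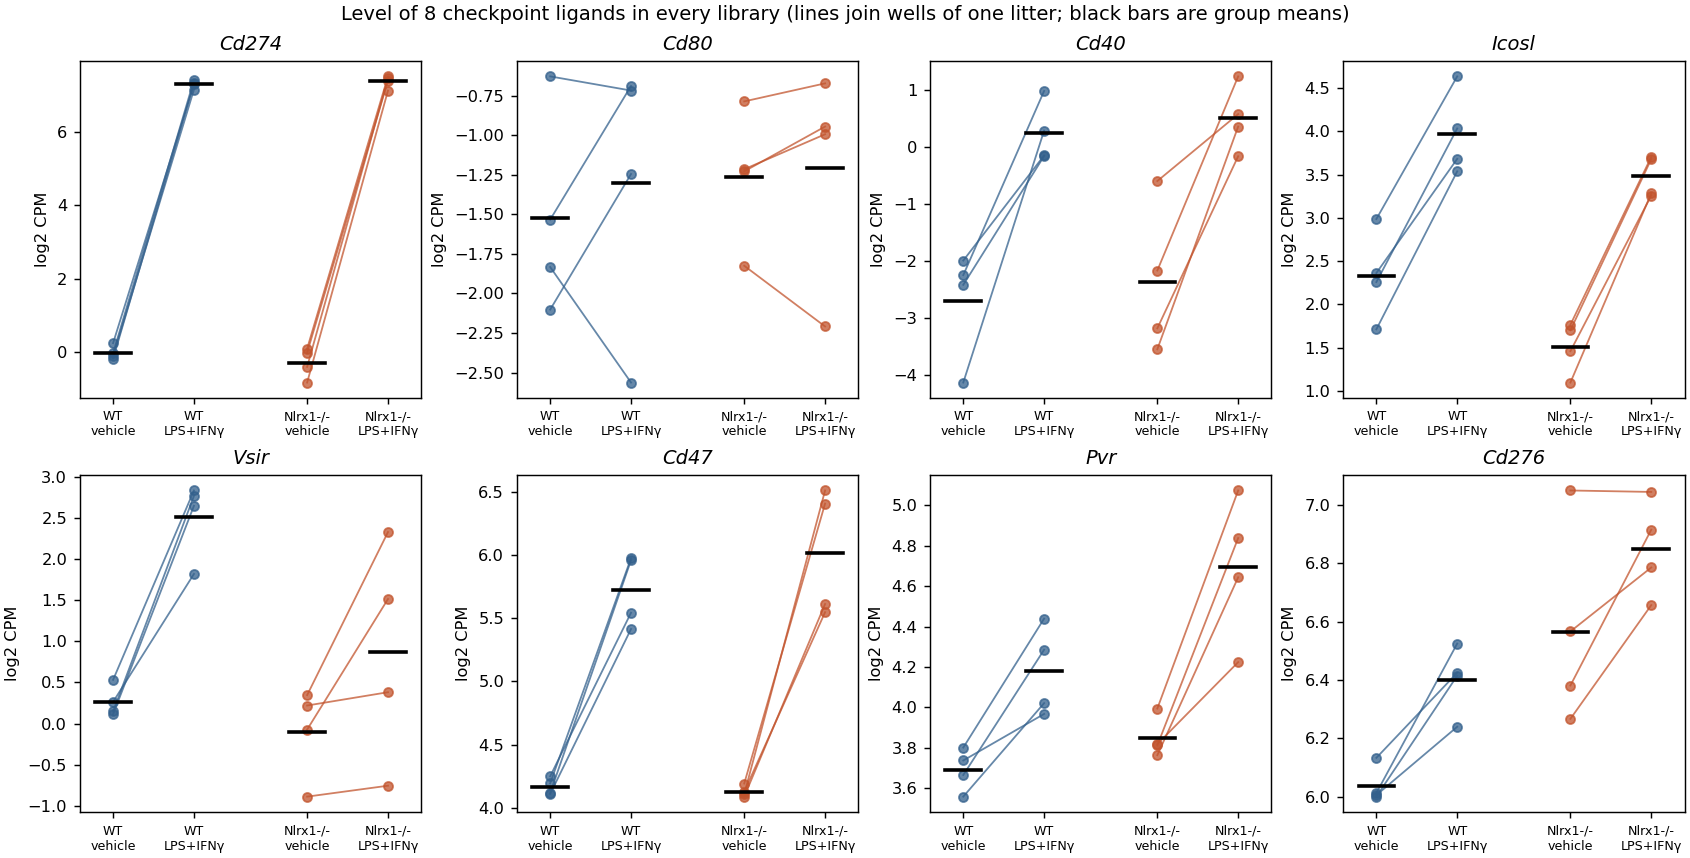
Deposited log2 CPM of the 8 ligands in each of the 16 libraries, by group on the horizontal axis, with lines joining the vehicle and LPS + IFNγ wells of a litter and black bars at group means; vertical scales differ between panels. Cd274 climbs from near 0 to above 7 log2 CPM in each of the 8 litters, while lines of Cd80 run in both directions.

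Salmon divided the Cd274 reads among 3 RefSeq transcripts, and the division differed between treatments. After LPS + IFNγ, NM_021893.3 (3653 bases) took 81.3% ± 1.71 of the reads in WT and 77.9% ± 5.79 in Nlrx1-/- (SD, n = 4), and XM_030251020.2 (4092 bases) took 17.7% ± 2.18 and 21.2% ± 5.04. In vehicle, NM_021893.3 was given 0 reads in 7 of 8 libraries and 22 reads in Nlrx1-/- litter 3. The vehicle reads of all 4 WT litters, between 30 and 42 per library, were placed on XM_030251020.2, and the 37 reads of Nlrx1-/- litter 4 were placed on XM_030251021.2. These are estimates that share reads among overlapping transcripts, and those of vehicle rest on few reads. Cd47, which has 13 paired transcripts, kept most of its reads on NM_001368415.1, with 69.97% ± 4.79 in WT vehicle and 69.4% ± 4.07 in WT LPS + IFNγ. Icosl, Pvr and Cd276 had 1 paired transcript each, so no division could be seen.

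**Figure D2:**
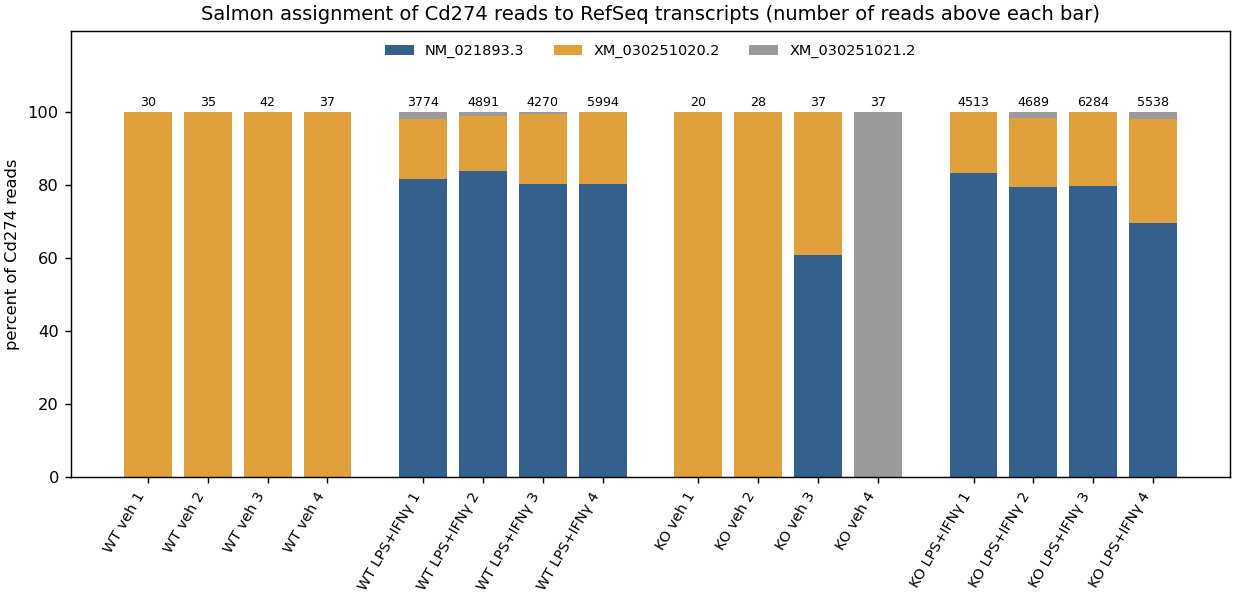
Percent of Cd274 reads that Salmon assigned to each of 3 RefSeq transcripts, 1 bar per library, with the number of Cd274 reads above each bar (KO, Nlrx1-/-; veh, vehicle). NM_021893.3 holds between 69.6% and 83.7% in the 8 stimulated libraries and is at 0 in 7 of 8 vehicle libraries.

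The other PD-1 ligand did not follow. On the 1 transcript paired with its symbol, Pdcd1lg2 had 0 reads in each of the 8 WT libraries. The Nlrx1-/- libraries had between 0 and 4 reads, and all 16 libraries together had 8. The share of its reads on paired transcripts could not be computed, because the gene was absent from the table. A count of 0 allows up to 3 reads, which is at most 0.110 CPM at the lowest depth. PD-L2 induction was therefore not detectable on this transcript at this depth, in wells in which Cd274 reached between 138 and 181 CPM.

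The receptors and ligands of costimulation gave 3 different pictures. The 2 CD28 ligands were at or near background. On its 4 paired transcripts, Cd86 had reads in 3 of 16 libraries, at most 6 in any of them, and was not tested. As for Pdcd1lg2, the share of its reads on paired transcripts could not be computed. Cd80 was in the table with between 4 and 22 reads per library. In WT it was at −1.53, −1.83, −2.10 and −0.63 log2 CPM in vehicle and at −0.69, −2.56, −1.25 and −0.72 after LPS + IFNγ, and in Nlrx1-/- at −1.22, −0.79, −1.23 and −1.82 and then at −0.99, −0.67, −0.95 and −2.21. It was higher after stimulation in 2 of 4 WT litters and in 3 of 4 Nlrx1-/- litters, the groups overlapped, and neither response passed the test (limma on log2 CPM, 0.22 ± 0.39, adjusted p = 0.67 in WT and 0.06 ± 0.39, adjusted p = 0.91 in Nlrx1-/-). Near this level a change of Cd80 would have to be large to be seen.

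Cd40, the receptor through which T cells activate antigen-presenting cells, rose from very few reads. WT vehicle libraries had 4, 0, 9 and 6 reads and their stimulated partners 23, 40, 24 and 73. Nlrx1-/- vehicle libraries had 1, 6, 2 and 25 reads and their stimulated partners 42, 67, 31 and 50. Every litter had more reads after LPS + IFNγ than before, and Nlrx1-/- litter 4 was the vehicle well with the highest count. The log2 fold change was 3.27 ± 0.76 in WT (edgeR, adjusted p = 0.0053) and 3.20 ± 0.75 in Nlrx1-/- (edgeR, adjusted p = 0.0050). On the log2(CPM + 1) scale, which compresses low levels, the responses were 0.95 and 1.00 and were also called. On the scale of level, 79.8% of genes remained above Cd40 in WT LPS + IFNγ.

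Icosl, which encodes the ICOS ligand, rose in every litter. In WT it went from 1.71, 2.26, 2.36 and 2.99 log2 CPM to 3.54, 4.03, 3.68 and 4.63, and in Nlrx1-/- from 1.46, 1.10, 1.76 and 1.7003 to 3.26, 3.28, 3.70 and 3.68. Vehicle and stimulated wells did not overlap in either genotype. The log2 fold change was 1.64 ± 0.13 in WT (limma on log2 CPM, adjusted p = 8.1e-07) and 1.98 ± 0.13 in Nlrx1-/- (limma on log2 CPM, adjusted p = 1.4e-07), and the litter responses spanned 2.50-fold to 3.54-fold and 3.48-fold to 4.55-fold. WT litter 4 was the highest of the WT litters in both wells.

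Vsir, which encodes the inhibitory ligand VISTA, rose in WT and was uneven in Nlrx1-/-. WT litters went from 0.26, 0.53, 0.11 and 0.15 log2 CPM to 1.82, 2.83, 2.65 and 2.77. Nlrx1-/- litters started at −0.07, −0.89, 0.35 and 0.22 and reached 1.51, −0.75, 2.33 and 0.38. Litters 1 and 3 of the knockout rose by 1.59 and 1.98 on the log2 scale, whereas litters 2 and 4 moved by 0.13 and 0.16. The log2 fold change was 2.31 ± 0.35 in WT (edgeR, adjusted p = 3.5e-04) and 1.07 ± 0.36 in Nlrx1-/- (edgeR, adjusted p = 0.031). The knockout call was lost without litter 1 (0.86, adjusted p = 0.13) or without litter 3 (0.68, adjusted p = 0.16). Vsir had between 15 and 255 reads per library.

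Cd276, the B7-H3 gene, was abundant before treatment and changed little. WT litters went from 6.01, 6.13, 6.01 and 6.00 log2 CPM to 6.53, 6.43, 6.24 and 6.41, and Nlrx1-/- litters from 6.38, 7.05, 6.27 and 6.57 to 6.92, 7.04, 6.66 and 6.79. The rise was 0.36 ± 0.08 in WT (edgeR, adjusted p = 0.0050) and 0.27 ± 0.08 in Nlrx1-/- (edgeR, adjusted p = 0.018), and Nlrx1-/- litter 2 did not rise. Both calls were lost in a fit without the replicate block (adjusted p = 0.050 in WT and 0.16 in Nlrx1-/-). The knockout call was also lost without litter 1 (0.20, adjusted p = 0.098) or without litter 3 (0.23, adjusted p = 0.071).

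Cd47, the signal that restrains engulfment by phagocytes, rose in every litter, by between 2.45-fold and 5.29-fold. WT litters went from 4.11, 4.12, 4.25 and 4.19 log2 CPM to 5.41, 5.96, 5.54 and 5.98, and Nlrx1-/- litters from 4.09, 4.11, 4.13 and 4.19 to 5.61, 6.51, 5.55 and 6.41. The 8 vehicle wells lay within 4.09 to 4.25, and the stimulated wells spread over more than 1 log2 unit. The log2 fold change was 1.56 ± 0.16 in WT (edgeR, adjusted p = 3.0e-05) and 1.89 ± 0.16 in Nlrx1-/- (edgeR, adjusted p = 6.9e-06).

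Pvr, the ligand of CD226 and TIGIT, rose less. WT litters went from 3.80, 3.67, 3.56 and 3.74 log2 CPM to 4.44, 4.29, 4.02 and 3.97, and Nlrx1-/- litters from 3.76, 3.99, 3.82 and 3.81 to 4.64, 5.07, 4.22 and 4.84. The log2 fold change was 0.49 ± 0.11 in WT (edgeR, adjusted p = 0.0057) and 0.84 ± 0.11 in Nlrx1-/- (edgeR, adjusted p = 1.4e-04), with a rise in 4 of 4 litters of each genotype. Chosen after the values were seen, Nlrx1-/- litters 2 and 4 had the 2 highest stimulated levels of both Cd47 and Pvr among the 8 litters and the 2 lowest of Vsir.

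**Figure D3:**
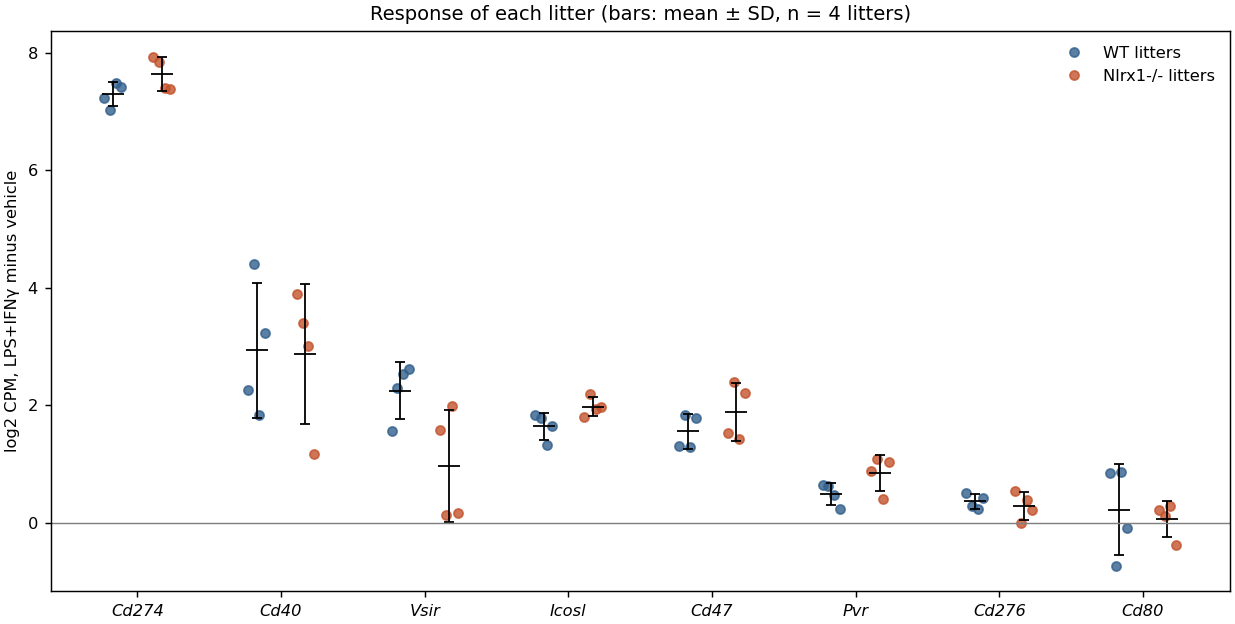
Response of each litter, as log2 CPM in the LPS + IFNγ well minus log2 CPM in the vehicle well, for the 8 ligands; circles are litters and black bars are the mean ± SD over 4 litters of a genotype. Cd274 stands above 7 in all 8 litters, Vsir in Nlrx1-/- splits into 2 litters near 0 and 2 above 1.5, and Cd80 straddles 0.

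Taking the set as a whole, 7 of the 8 genes tested rose in WT and 7 of 8 rose in Nlrx1-/-, and none fell; Cd80 was the gene that was not called in either. Among all genes tested by edgeR, 24.3% rose in WT and 25.6% rose in Nlrx1-/-, and by limma on the deposited log2 CPM, which served for Icosl and Cd80, 24.9% and 26.6% rose. The shares that fell were 19.8% and 23.9% by edgeR and 21.9% and 25.5% by limma. The median litter response of the 8 genes was 1.60 log2 in WT and 1.43 in Nlrx1-/-, against −0.02 and −0.02 over all 16707 genes. The 2 genes outside the table are not part of these counts.

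Because CPM is not corrected for transcript length, genes were ordered by TPM. In WT vehicle the order was Cd276 (43.96 ± 1.71 TPM, SD, n = 4), Cd47 (17.3 ± 0.843), Pvr (10.2 ± 0.773), Icosl (3.93 ± 1.26), Cd274 (0.551 ± 0.0724), Vsir (0.494 ± 0.0680) and Cd40 (0.172 ± 0.121). Cd274 and Vsir overlapped there, and the other neighbours did not. After LPS + IFNγ the WT order was Cd274 (78.5 ± 5.31 TPM), Cd276 (48.7 ± 4.86), Cd47 (44.3 ± 8.14), Pvr (12.4 ± 2.12), Icosl (9.91 ± 4.23), Vsir (2.15 ± 0.567) and Cd40 (1.47 ± 0.632). Cd274 thus moved from the fifth place to the first, above every library of Cd276, while Cd276 and Cd47, Pvr and Icosl, and Vsir and Cd40 overlapped pairwise. In Nlrx1-/- LPS + IFNγ, Cd274 (81.9 ± 9.19 TPM) was again highest, but its range reached into that of Cd276 (65.4 ± 6.41), and Cd40 (1.74 ± 0.690) stood above Vsir (0.881 ± 0.741) with overlapping ranges. Cd80 was left out of this order because most of its reads lay on transcripts that could not be paired with its symbol, and Icosl values count between 79.2% and 99.5% of its reads.

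**Figure D4:**
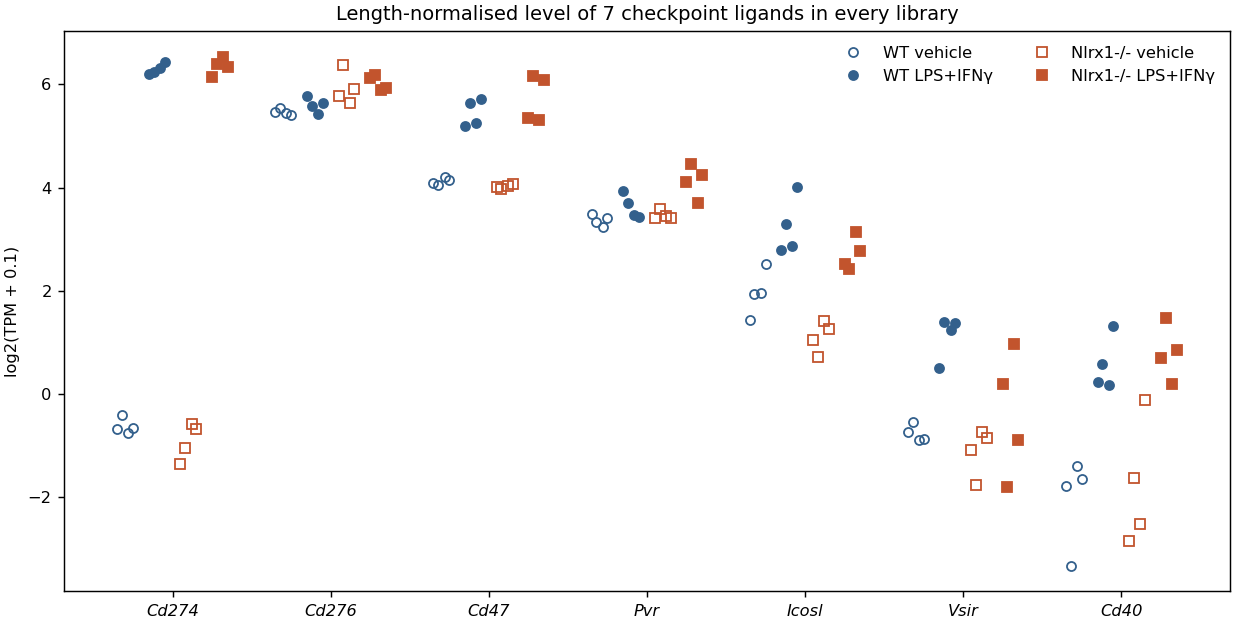
Level of 7 ligands per transcript length, as log2(TPM + 0.1), in every library of the 4 groups. Cd274 is among the lowest in vehicle and the highest in WT LPS + IFNγ, and Cd276 is high in all 4 groups.

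Whether Nlrx1 altered these ligands was asked in 3 ways. The difference of the responses, Nlrx1-/- minus WT, was called for 0 of 8 genes by edgeR and limma, with 2 at an unadjusted p below 0.05, and for 0.0% of all genes tested by either tool. An unadjusted p below 0.05 was found for 15.5% of all genes by edgeR. Without Nlrx1-/- litter 3, 2.2% of all genes were called by edgeR and 4.92% by limma, and again 0 of the 8. With DESeq2 in place of edgeR, and Icosl and Cd80 kept with limma, 0 of the 6 ligands with an adjusted p (not Vsir or Cd40) were called, against 2.88% of all genes by DESeq2. For Cd274 the difference was 0.32 ± 0.17 log2 (edgeR, adjusted p = 0.41). The 2 genes with the lowest unadjusted p were Vsir, with −1.24 ± 0.49 (edgeR, adjusted p = 0.28), and Pvr, with 0.36 ± 0.16 (edgeR, adjusted p = 0.32). Exact two-sided permutation tests of the 4 against 4 litter responses, which cannot go below 0.0286, gave p = 0.17 for Cd274, 0.057 for Icosl, 0.086 for Vsir, 0.11 for Pvr, 0.29 for Cd47, 0.57 for Cd276, 0.69 for Cd80 and 0.97 for Cd40, unadjusted over these 8 tests. Litter responses of the 2 genotypes overlapped for each of the 8 genes, whereas 3.06% of all genes had non-overlapping responses with Nlrx1-/- above WT and 5.25% with Nlrx1-/- below. For Cd40 the SE of the difference (−0.07 ± 1.08) was above 1 log2 unit, so a change of that size in either direction could have been missed.

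In vehicle, Nlrx1-/- and WT levels differed for 0 of 8 genes at an adjusted p below 0.05, with 2 at an unadjusted p below 0.05, and for 0.0% of all genes tested by edgeR and 0.00599% by limma. An unadjusted p below 0.05 was found for 19.5% of all genes by edgeR. The 2 ligands were Cd276, higher in the knockout by 0.55 ± 0.14 (edgeR, adjusted p = 0.11), and Icosl, at −0.82 ± 0.27 (limma on log2 CPM, adjusted p = 0.12). Without Nlrx1-/- litter 2, the Cd276 difference was 0.36 (edgeR, adjusted p = 0.35), and without litter 3 it was 0.65 (edgeR, adjusted p = 0.015). In these 2 fits edgeR called 0.0184% and 7.88% of all genes. DESeq2 called Cd276, as it did 5.89% of all genes. For Cd274 the difference was −0.25 ± 0.19 (edgeR, adjusted p = 0.48).

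After LPS + IFNγ, edgeR and limma as assigned called 0 of 8 genes between the genotypes, against 4.72% of all genes tested by edgeR and 8.8% by limma. Unadjusted p was below 0.05 for 3 of the 8 and for 28.2% of all genes by edgeR. Pvr was higher in Nlrx1-/- by 0.52 ± 0.15 (edgeR, adjusted p = 0.054), Cd276 was higher by 0.44 ± 0.14 (edgeR, adjusted p = 0.063), and Vsir was at −1.30 ± 0.48 (edgeR, adjusted p = 0.097). These lay close to the threshold, and DESeq2 and limma on the deposited log2 CPM called all 3, with adjusted p between 0.013 and 0.049, while DESeq2 called 18.0% of all genes. With replicate number as a block, although it did not pair the genotypes, Pvr (adjusted p = 0.030) and Cd276 (adjusted p = 0.026) were called by edgeR, as were 13.4% of all genes. Without Nlrx1-/- litter 3 all 3 were called by edgeR (adjusted p between 0.0068 and 0.017), as were 20.2% of all genes. With other litters left out in turn, the adjusted p reached 0.17 for Pvr, 0.17 for Cd276 and 0.25 for Vsir (edgeR). Without WT litter 2, edgeR called 0.00614% of all genes, and with only the stimulated libraries 0.00668%. Cd276 was the gene whose knockout libraries lay above those of WT without overlap in both vehicle and LPS + IFNγ, which 1.66% of all genes in the table did (6.02% in vehicle and 7.09% in LPS + IFNγ). For Cd274 the stimulated levels differed by 0.07 ± 0.12 log2 (edgeR, adjusted p = 0.74). In the same contrast 3 of 10 astrocyte markers, Aldoc, Gja1 and S100b, were lower in Nlrx1-/- (edgeR, adjusted p between 0.045 and 0.048), as was the oligodendrocyte precursor marker Pdgfra (−0.84 ± 0.19, edgeR, adjusted p = 0.040), and their part in the ligand values was not tested.

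The genes whose level ran closest to Cd274 over the 16 libraries were B2m, Gbp6, Nlrc5, Serpina3f and Apol6, with Pearson r of 0.998 for each among 12599 genes with a mean of at least 1 log2 CPM. B2m is the light chain of MHC class I and Nlrc5 the activator of the class I genes. These r values describe the split between 8 vehicle and 8 stimulated wells and carry no test. Among the ligands, Cd47 had r of 0.955 (rank 428), Icosl 0.891 (rank 1020), Pvr 0.771 (rank 2049) and Cd276 0.457 (rank 4266). After each library was centred on its group mean, the closest were Pqlc3 (r = 0.903), Coa4 (0.849), Zfp217 (0.805), Gbp8 (0.791) and Cxcl12 (0.773), and none of the 4 other ligands compared (Cd47, Icosl, Pvr and Cd276) was among them.

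Of 24 known regulators of PD-L1, 17 rose and 1 fell in WT, and 20 rose and 0 fell in Nlrx1-/-, with medians of 0.46 and 0.72 log2 against −0.01 and −0.03 over all genes. Among all genes tested by edgeR, 24.3% rose and 19.8% fell in WT, and 25.6% rose and 23.9% fell in Nlrx1-/-. The largest WT responses were those of Socs1, the feedback inhibitor of JAK signalling (6.23 ± 0.19 in WT and 6.27 ± 0.19 in Nlrx1-/-), Irf1 (5.81 ± 0.10 and 5.59 ± 0.10) and Bcl3, an NF-κB cofactor (4.23 ± 0.40 and 7.36 ± 0.51). The IFNγ receptor chains did not rise, and Ifngr2 fell by 0.19 on the log2 scale in WT (edgeR, adjusted p = 0.044). Cmtm6, which protects PD-L1 from degradation, rose by 0.27 in WT (edgeR, adjusted p = 0.0021), and its relative Cmtm4 was at −0.04 (edgeR, adjusted p = 0.58). Bcl3 had the largest difference of the responses in this list, 3.13 ± 0.72 (edgeR, adjusted p = 0.21). Its mean was −1.98 log2 CPM in WT vehicle and −3.63 in Nlrx1-/- vehicle, where −4.13 stands for 0 reads. After LPS + IFNγ it was 1.93 in WT and 2.30 in Nlrx1-/-. The difference thus rests on vehicle wells with few reads. No regulator passed in the difference of the responses or in either genotype contrast, in which 7, 3 and 7 of 24 had an unadjusted p below 0.05, against 15.5%, 19.5% and 28.2% of all genes tested by edgeR.

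**Figure D5:**
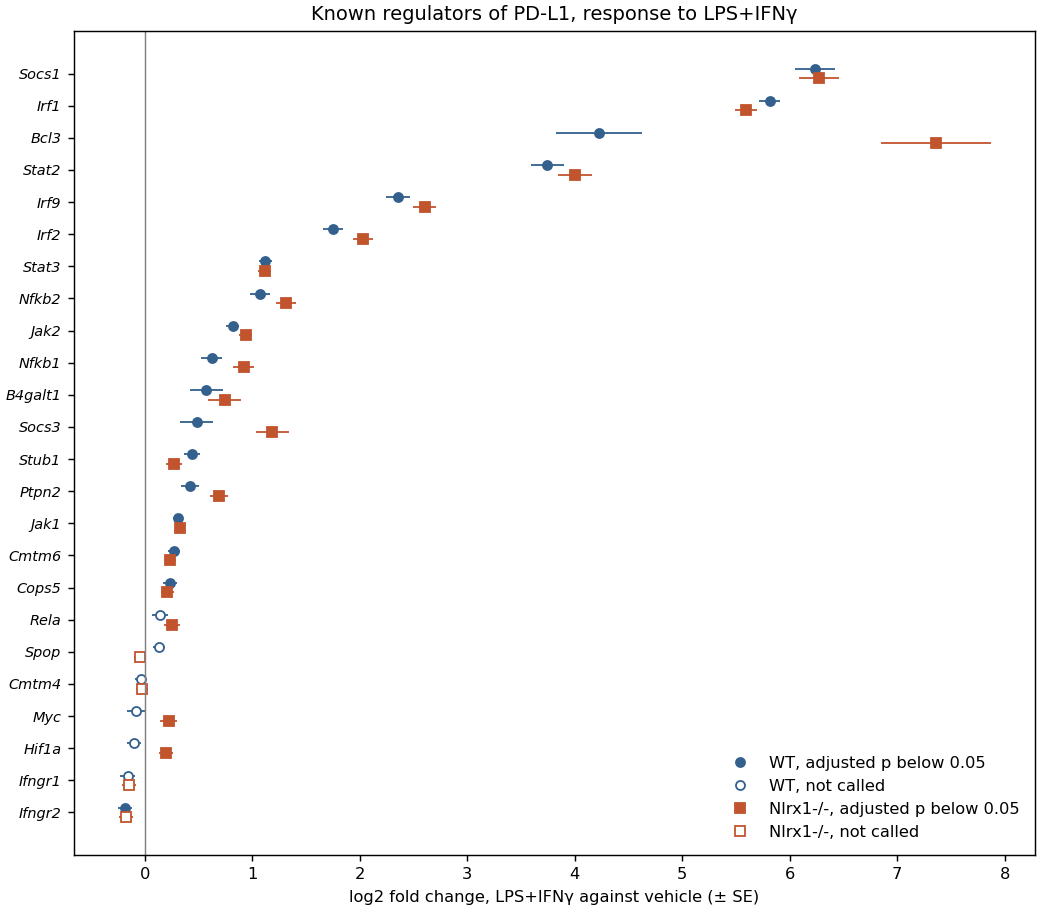
Log2 fold change (LPS + IFNγ against vehicle, ± SE) of 24 known regulators of PD-L1 in WT (circles) and Nlrx1-/- (squares), filled where the adjusted p was below 0.05. Socs1 and Irf1 exceed 5 in both genotypes and the IFNγ receptor chains lie just below 0.

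In the CD40 pathway, 8 of 11 signalling genes rose and 2 fell in WT, and 9 rose and 0 fell in Nlrx1-/-. For this and the lists that follow, the shares over all genes by edgeR were 24.3% up and 19.8% down in WT and 25.6% up and 23.9% down in Nlrx1-/-. The largest WT responses were those of the NF-κB feedback enzyme Tnfaip3 (3.26 ± 0.30), Birc3 (2.06 ± 0.23, limma on log2 CPM), Relb (1.45 ± 0.09) and Traf5 (1.08 ± 0.18, limma on log2 CPM). Traf1 (−0.56 ± 0.19) and Traf6 (−0.18 ± 0.05) fell in WT.

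Of 21 other co-signalling ligands, 15 were tested, of which 7 rose and 3 fell in WT and 6 rose and 3 fell in Nlrx1-/-. Tnfrsf14 (HVEM), the ligand of BTLA, rose by 9.15 ± 0.41 and 9.66 ± 0.43 log2, H2-T23 (Qa-1) by 7.88 ± 0.13 and 7.36 ± 0.12, Lgals9 (galectin-9) by 6.39 ± 0.29 and 6.42 ± 0.27, and the adhesion ligand Icam1 by 5.26 ± 0.11 and 5.36 ± 0.11 (WT and Nlrx1-/-). Cd200 and Cd24a, ligands that restrain myeloid cells, fell in both genotypes, by 0.48 and 0.80 on the log2 scale in WT. Of 16 soluble and enzymatic T cell inhibitors, 11 were tested, and 6 rose and 2 fell in each genotype. The death ligand Tnfsf10 (TRAIL) rose by 11.01 ± 0.36 and 10.49 ± 0.35, Ido2 by 3.35 ± 0.86 and 4.15 ± 0.93, Nos2 by 3.23 ± 0.88 and 4.14 ± 0.87 and Ptgs2 by 2.57 ± 0.55 and 3.59 ± 0.52. Ido2 and Nos2 each had between 0 and 67 reads per library, whereas Tnfsf10 reached 4650. No gene of these lists passed in the difference of the responses or between genotypes (edgeR and limma).

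Of 15 genes for binding partners of the ligands on T cells and myeloid cells, 5 were tested. Sirpa, the receptor of CD47, fell by 0.42 on the log2 scale in WT (edgeR, adjusted p = 5.7e-04) and by 0.31 in Nlrx1-/- (edgeR, adjusted p = 0.0028), while Cd47 rose. Btla fell in Nlrx1-/- (−3.40 ± 0.87, edgeR, adjusted p = 0.0077) and was at −1.12 ± 0.85 in WT (edgeR, adjusted p = 0.31), with between 0 and 45 reads per library. Pdcd1, the receptor of PD-L1, Cd28, Ctla4 and 7 others, among them the CD40 ligand gene Cd40lg, were absent from the table.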

How the data were processed

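Primary astrocytes were profiled by poly-A RNA-seq in 16 libraries. The authors quantified unstranded paired-end reads with Salmon (version 1.7.0) against the GRCm39 transcriptome, and deposited estimated counts and TPM values per RefSeq transcript for each library. They also deposited gene tables of CPM and log2 CPM made with limma (version 3.58.1), whose lowest log2 value, −4.13, stands for 0 reads. Columns of that CPM table were scaled to normalised library sizes and do not sum to the same total.

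Here, estimated counts were summed over transcripts whose accession, without its version, is paired with a symbol in RefSeq (GRCm38.p6, 106440 of 129698 transcripts, between 96.7% and 97.3% of reads) and rounded. Genes passing filterByExpr (minimum count 10) were fitted with edgeR 4.0.16 (quasi-likelihood, TMM, transcript-length offsets; 16066 genes). Responses and their difference were taken from a design with litter blocks within genotype, the formula of the study, and genotype contrasts from the 4 groups without litter terms. Benjamini-Hochberg adjustment ran over all genes, with a threshold of 0.05. SE of edgeR values was derived from the test statistic. Genes with under 90% of reads on paired transcripts in any library (Cd80 and Icosl; among the lists Birc3, Traf5, Tgfb1, and the cell type markers Flt1, Mbp, Rbfox3 and Gad1) were tested with limma on the deposited log2 CPM (16707 genes). Levels, litter responses and exact permutation tests (scipy 1.17.1) use the deposited log2 CPM. Counting limits cover counting error only.

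Wells of a litter deviated together (r between 0.26 and 0.62 after centring by group), whereas equal replicate numbers of the 2 genotypes did not pair (r between −0.24 and 0.36). Gene positions are from GENCODE M39. Windows before GENCODE starts were searched for motifs after the RefSeq windows had been. All 8 ligands in the table, Nlrx1, the 5 genes closest to Cd274 by either measure and, from each list, up to 4 called genes with the largest WT response are named, as are list genes called between genotypes; others (Cd200, Cd24a, Cmtm4, Cmtm6, Ifngr2, Traf1, Traf6 and the receptors) were named after their values were seen. The members and lists were chosen with earlier results of these data known, and 2 listed genes are not reported here. Alternatives tried were DESeq2 1.42.0, limma-voom, limma on both deposited scales, other size factors, no length offsets, no filter, other blocks, fewer libraries and each litter left out. A further one, chosen after seeing the data, used reads recovered from the deposited CPM.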

Additional observations from a re-analysis of the deposited data

Results flagged for a closer look

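One value stood apart from its group by Dixon's criterion for 4 samples (0.829). Cd276 in the vehicle well of WT litter 2 was at 6.13 log2 CPM, and its gap to the next WT litter was 0.908 of the group's range. The other 3 WT litters were at 6.01, 6.01 and 6.00. Of 48 groups of 4 examined, 1 was flagged, and chance flags about 1 in 20.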

How the results depend on the processing

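Counts of ligands called in either response and in the difference of the responses stayed within 1.5 times the reported counts under the alternatives run. With each litter left out in turn, 7 ligands rose in WT and between 5 and 7 in Nlrx1-/-, and none was called in the difference. Of all genes, edgeR called between 33.6% and 45.7% in WT and between 40.7% and 47.4% in Nlrx1-/-, in either direction. In the difference the shares reached 2.2% by edgeR and 4.92% by limma, both without Nlrx1-/- litter 3. The Nlrx1-/- calls of Vsir and Cd276 were lost without litter 1 or 3, and both Cd276 calls without the litter block, as given above.

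Genotype contrasts, with 0 ligands called as reported, depended more on the setting. In vehicle, DESeq2 called 1 ligand as higher in Nlrx1-/- (Cd276, adjusted p = 0.012), against 5.89% of all genes. In LPS + IFNγ, DESeq2, limma on log2 CPM and limma on log2(CPM + 1) each called 2 higher (Pvr, Cd276) and 1 lower (Vsir), against 18.0%, 8.8% and 8.42% of all genes called in either direction, and edgeR on reads recovered from the deposited CPM called 1 higher (Pvr, adjusted p = 0.046), against 7.04% of all genes. With each litter left out, between 0 and 1 were called higher and between 0 and 1 lower in vehicle, and between 0 and 2 higher and 0 and 1 lower in LPS + IFNγ. In vehicle these fits called between 0% and 7.88% of all genes by edgeR and between 0% and 9.68% by limma. In LPS + IFNγ they called between 0.00614% and 20.2% by edgeR and between 0.00599% and 23.2% by limma. The highest shares were those without Nlrx1-/- litter 3. Replicate numbers did not pair the genotypes, and with them as a replicate block 1 ligand was called lower in vehicle (Icosl, −0.82, adjusted p = 0.041, against 3.54% of all genes by limma) and 2 higher in LPS + IFNγ. The cause of these changes was not tested.

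Uncalled differences that changed sign were those of Cd40 and Cd80, the ligands with the fewest reads, and 1 of Cd276. The difference of the responses of Cd40 became 0.0588 on log2(CPM + 1). With each litter left out, it lay between −0.58 and 0.89 for Cd40, between −0.48 and 0.050 for Cd80 and between −0.16 and 0.0099 for Cd276. The Cd80 response in Nlrx1-/- lay between −0.0161 and 0.21. Between genotypes, Cd40 lay between −0.58 and 1.12 in vehicle and between −0.061 and 0.60 in LPS + IFNγ, and Cd80 between −0.32 and 0.43 in LPS + IFNγ. Cd80 and vehicle Cd40 lie near the lowest counts that can be read, and Pdcd1lg2 and Cd86, on their paired transcripts, lie below them.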
